A study of Mus musculus with 8 samples.

Results

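The kelch-BTB adaptors of cullin 3 ligases were examined in mouse tibialis anterior (TA) muscle electroporated with *Uba1* siRNAs versus control non-targeting (NT) siRNAs. Members were all rows of the expression table whose gene symbol begins with Klhl or Kbtbd followed by a digit, which gave 47 of 41709 genes (37 *Klhl* and 10 *Kbtbd*). All muscles came from 3-month-old male C57BL/6J mice and were collected 7 days after electroporation of 1500 pmol of a SMARTpool, a mixture of 4 siRNAs. The 4 muscles with *Uba1* siRNAs were left TA muscles and the 4 muscles with NT siRNAs were right TA muscles, so leg and siRNA cannot be told apart. Replicates with the same number were the legs of 1 mouse. Whole muscle was sequenced, so fewer cells of a type and less RNA per cell cannot be told apart.

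Cullin 3 (CUL3) is the scaffold of a family of ubiquitin ligases. Each ligase needs an adaptor protein that holds CUL3 through its BTB domain and the substrate through another domain, which in the kelch-BTB proteins is a kelch propeller. Ubiquitin itself must be activated, chiefly by UBA1, before any such ligase can use it. CUL3 is switched on by the related modifier NEDD8, which has its own activating enzyme. Skeletal muscle is known for a set of muscle-enriched kelch-BTB adaptors, several of which sit at the sarcomere, and mutations in KLHL40, KLHL41 or KBTBD13 cause nemaline myopathy in people.

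*Uba1* measured 60.6, 59.0, 63.6 and 59.1 TPM (the share of each transcript among all transcripts, per length) in the muscles with NT siRNAs and 18.1, 6.77, 15.8 and 23.1 TPM in those with *Uba1* siRNAs. The groups did not overlap (exact permutation test, two-sided, p = 0.0286, the smallest that 4 against 4 allows). The log2FC was -1.98 (standard error 0.290), with an adjusted p of 0.0527 by limma without pairing and 0.0278 with the legs of a mouse paired. The treatment labels of replicates 2 to 4 name UBA2, UBA3 and UBA4, while the titles and descriptions of the same muscles name UBA1. Myofibre markers summed to 87490 to 93660 TPM with NT siRNAs and to 71270 to 96470 TPM with *Uba1* siRNAs, and the lowest sums were those of replicates 2 and 4 with *Uba1* siRNAs. Mitochondrial genes took 42.1% to 45.7% of the TPM in the muscles with NT siRNAs and 39.9% to 50.3% in those with *Uba1* siRNAs. TPM keep no read total, so the depth behind each value is unknown.

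The adaptors differed widely in abundance, and *Klhl41* alone gave 40.0% ± 1.85 (SD, n = 4) of the summed TPM of the family in the muscles with NT siRNAs and 41.3% ± 1.62 in those with *Uba1* siRNAs. *Klhl41* measured 437.9 ± 36.2 TPM (SD, n = 4) with NT siRNAs and ranked 136 of all genes by mean TPM over the 8 muscles. *Klhl40* followed at 105.5 ± 9.80 TPM. *Klhl30*, *Klhl21*, *Klhl31* and *Klhl33* were next, and these 6 members were the ones with a mean above 50 TPM over the 8 muscles. The order within that group was not resolved below *Klhl41*, because the muscles of *Klhl40*, *Klhl30*, *Klhl21*, *Klhl31* and *Klhl33* overlapped with those of their neighbours. In all, 14 members averaged above 10 TPM, 21 lay between 1 and 10 TPM and 12 lay below 1 TPM. Testing was limited to genes that reached 1 TPM in 4 or more of the muscles, which held for 35 of the 47 members. A further 11 were below that limit, and *Klhl1*, known from neurons, was listed at 0 in every muscle.

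**Figure D1:**
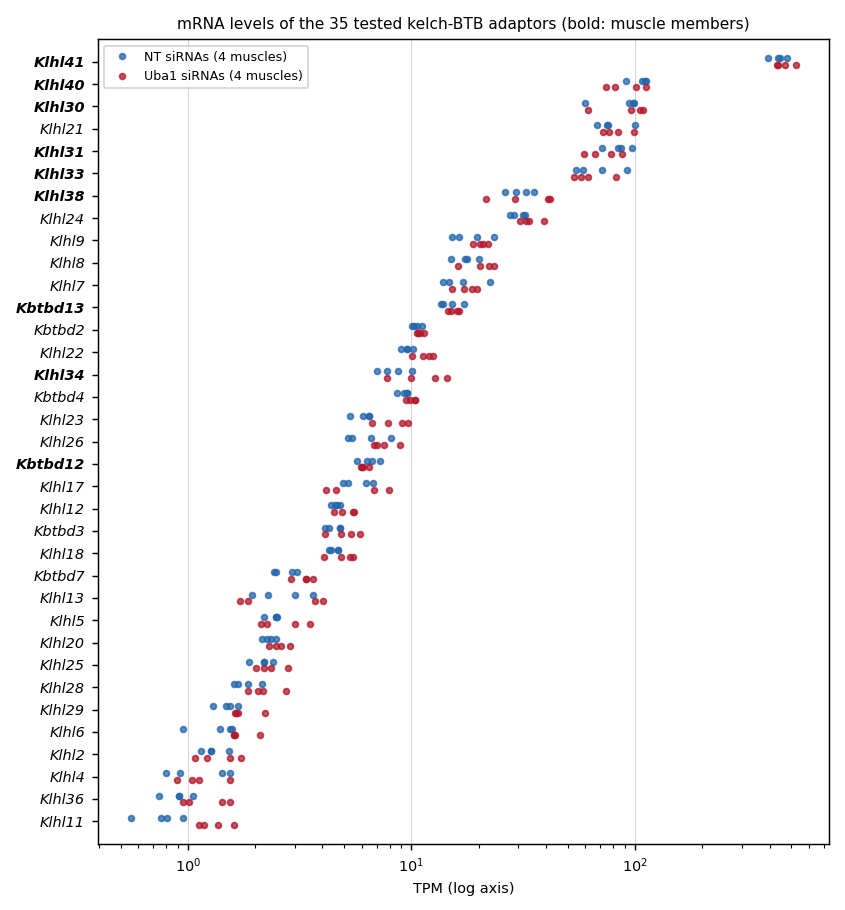
TPM of the 35 tested kelch-BTB adaptors on a log axis, ranked by mean TPM, with 1 point per muscle (blue, 4 muscles with NT siRNAs, and red, 4 with Uba1 siRNAs) and muscle members in bold. Klhl41 stands alone at 392 to 525 TPM, the next 5 members lie between 53.3 and 112 TPM, and blue and red points overlap for all but Klhl23, Klhl6 and Klhl11.

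The members at the top were mostly those of a list of 9 muscle members (*Klhl30*, *Klhl31*, *Klhl33*, *Klhl34*, *Klhl38*, *Klhl40*, *Klhl41*, *Kbtbd12* and *Kbtbd13*). This list summed to 844.8 ± 48.6 TPM of a family total of 1092 ± 48.1 TPM with NT siRNAs, or 77.3% ± 1.81. With *Uba1* siRNAs it summed to 852.2 ± 61.1 TPM of 1126 ± 67.3 TPM, or 75.7% ± 1.06. The family total with *Uba1* siRNAs was 1.03 times that with NT siRNAs, and 0.94 times with median-ratio scaling, so its direction depended on the scale. The shares of the muscles overlapped between the groups. The other 38 members summed to 247.8 ± 18.7 TPM with NT siRNAs and 273.5 ± 9.70 TPM with *Uba1* siRNAs, and these sums overlapped too.

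All 47 members were found in the GENCODE M39 annotation of GRCm39, where 46 are protein coding and *Kbtbd8os* is a long non-coding RNA. Their proteins run from 458 residues (*Kbtbd13*) to 875 residues, with a median of 606. The genes lie on 16 chromosomes, with 5 members on chromosome 9, among them *Klhl31*, *Klhl40* and *Kbtbd13*, and 4 on the X chromosome. *Klhl41* (chromosome 2, 69500462 to 69515137, plus strand) and *Klhl40* (chromosome 9, 121606673 to 121615109, plus strand) encode proteins of 606 and 621 residues that are identical at 53.0% of 604 aligned positions. Their coding sequences shared 0 stretches of 50 bases, a length below that of the 100-base reads.

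The upstream sequences of the members were searched for motifs of muscle transcription factors, and the stretches that carry one such motif are shown. The 200 bases before the annotated canonical start were searched on both strands for the MEF2 motif, the binding pattern of myocyte enhancer factors. It was present in 4 of the 9 muscle members (44.4%), 0 of the other 26 tested members and 2.06% of 21751 protein-coding genes (1.66% of those tested). In the 30-base stretches that follow, capitals mark the MEF2 match, the gene's own strand is printed 5′ to 3′, and coordinates are on GRCm39.
Klhl41 (chr2:69500391-69500420, plus strand, match 63 bases before the start): gagccggtgtCTATATTTAGccggtgggat
Klhl40 (chr9:121606717-121606746, plus strand, match 28 bases before the start): tgggcatcctCTATATATAGcccagggcag
Klhl33 (chr14:51134971-51135000, minus strand, match 26 bases before the start): ctcaggctagCTATAATTAGccaagtgcgg
Kbtbd12 (chr6:88604483-88604512, minus strand, match 66 bases before the start): ctcgcttggtCTATTTATAGtgcttgtcag
All 4 begin with the letters CTAT and end with TAG, and they differ in the middle. The *Klhl40* stretch lies in an exon of another *Klhl40* transcript, which starts farther upstream, and of the opposite-strand gene model *Gm47108*, and the other 3 lie outside annotated exons. A match is a run of letters, and no binding was measured.

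The E-box CAGCTG, the form favoured by myogenic helix-loop-helix factors, was found upstream of *Klhl34*, *Klhl40* and *Klhl41*, 33.3% of the muscle members, against 15.4% of the other tested members and 9.76% of protein-coding genes (9.15% of those tested). *Klhl40* carried it 2 times. All 200 bases lie in annotated exons for *Klhl34* (exons of *Cnksr2*), *Klhl40* (exons of *Gm47108*) and *Klhl38* (exons of *Klhl38* itself). The letters TATAAA, searched on both strands, were found upstream of *Klhl38*, *Kbtbd12* and *Kbtbd13*, each time on the opposite strand. The own strand of these genes reads TTTATA there, and in *Kbtbd12* this overlaps the MEF2 match. Matches on either strand were present in 3.85% of the other tested members and 9.57% of protein-coding genes (5.54% of those tested). The ratio of observed to expected CpG had a median of 0.372 in the muscle members, 0.722 in the other tested members and 0.491 in all protein-coding genes, and it was 0.684 in the 10858 of these that were tested. *Klhl31* and *Klhl30* held none of the 3 motifs although they are among the 6 highest members. The 200 bases before *Klhl31*, printed as the instance of a highly expressed muscle member without a match, have no capitals.
Klhl31 (chr9:77543552-77543751, plus strand): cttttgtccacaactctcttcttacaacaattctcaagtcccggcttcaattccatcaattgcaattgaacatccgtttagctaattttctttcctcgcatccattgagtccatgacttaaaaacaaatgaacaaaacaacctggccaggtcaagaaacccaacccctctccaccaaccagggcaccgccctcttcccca

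The question of the comparison was which of these mRNAs differed between muscles with *Uba1* siRNAs and contralateral muscles with NT siRNAs. None of the 35 tested members passed an adjusted p of 0.05 by limma on log2(TPM + 1), against 3 of 11530 genes tested (0.0260%). The members were close to all genes in their median log2FC and in the share above 0. A log2FC above 0 was found in 29 of 35 members (82.9%) and in 81.8% of all genes, and the median log2FC was 0.10 in the members and 0.11 in all genes. When TPM were rescaled so that the typical gene is level across muscles (median-ratio scaling), 17 of 35 members (48.6%) and 48.0% of all genes were above 0. The medians were then -0.01 and -0.01. Small positive log2FC, up to about that shift of 0.11, can therefore turn negative with the scale.

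**Figure D2:**
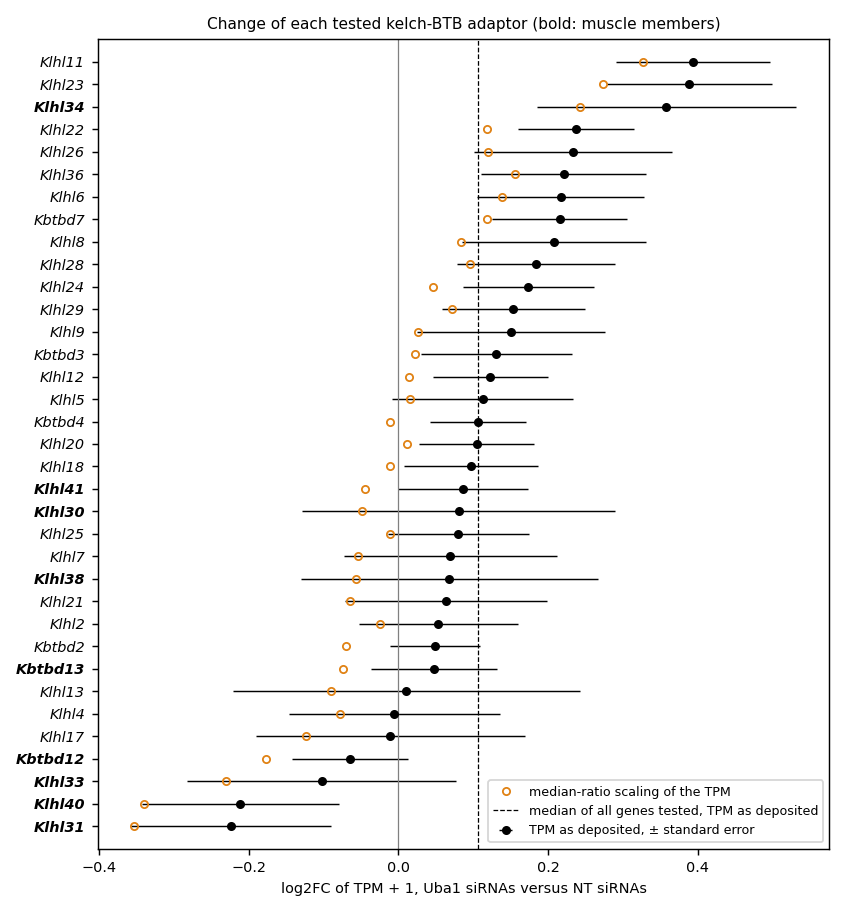
log2FC of TPM + 1 for each tested kelch-BTB adaptor, Uba1 siRNAs versus NT siRNAs, ordered by size. Black points with standard errors use TPM as deposited, orange circles use median-ratio scaling, the dashed line is the median of all genes (0.11), and bold names are muscle members, 8 of which lie left of that line.

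At an unadjusted limma P under 0.05, 4 of 35 members (11.4%) were higher with *Uba1* siRNAs, against 16.0% of all genes, and 0 were lower, against 1.98%. Those 4 were *Klhl11*, *Klhl23*, *Klhl22* and *Kbtbd7*. With the legs of a mouse paired, 6 were higher (17.1%, against 22.4%) and 0 lower (against 2.80%), and 0 passed the adjusted p (against 0.494%). With median-ratio scaling 2 were higher (*Klhl11* and *Klhl23*, 5.71%, against 3.90%) and 2 lower (*Klhl31* and *Klhl40*, 5.71%, against 6.70%), and 0 passed the adjusted p (against 0.243%). With both changes 2 were higher (5.71%, against 6.19%), 4 were lower (11.4%, against 9.50%) and 0 passed the adjusted p (against 0.711%). *Klhl11* is counted here although it met the limit for testing in the muscles with *Uba1* siRNAs alone. Without it, the members that were higher numbered 3 of 34 (8.82%), 5 (14.7%) with paired legs, 1 (2.94%) with median-ratio scaling and 1 (2.94%) with both. The lowest adjusted p of any member in these 4 limma fits was 0.0827, for *Klhl23* with paired legs.

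By their ranges, the groups did not overlap for 3 members, all higher with *Uba1* siRNAs (*Klhl23*, *Klhl11* and *Klhl6*, 8.57% of members against 10.6% of genes), and for 0 members in the lower direction (against 1.01%). All 4 mice had more in the leg with *Uba1* siRNAs for 9 members (25.7%, against 32.2%), and less for 1 member, *Klhl33* (2.86%, against 2.98%). Without *Klhl11*, the members without overlap numbered 2 of 34 (5.88%) and those higher in all mice 8 (23.5%). These shares lay near or under those of all genes.

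The muscle members had a lower median log2FC than the rest of the family. Of the 9, only *Klhl34* lay above the median of all genes, whereas 16 of the other 26 tested members did. Their median log2FC was 0.05, against 0.13 in the other 26. With median-ratio scaling the medians were -0.07 and 0.02, and again 1 of 9 and 16 of 26 lay above 0. On TPM as deposited, 0 of the 9 were lower at an unadjusted limma P under 0.05, without pairing (against 1.98% of all genes) or with it (2.80%). With median-ratio scaling alone 2 were lower (*Klhl31* and *Klhl40*, 22.2%, against 6.70% of all genes). The 4 members that were lower with paired legs and median-ratio scaling (*Kbtbd12*, *Klhl31*, *Klhl40* and *Klhl33*) all belong to the 9. In that fit 9.50% of all genes were lower. General markers of the fibre were mixed. The 6 tested myofibre markers had a median log2FC of -0.06, and -0.19 with median-ratio scaling, where *Acta1*, *Ckm* and *Tnnt3* were lower at an unadjusted limma P under 0.05 (3 of 6, against 6.70% of all genes). The myosins *Myh1* and *Myh2* of the same list had positive log2FC of 0.34 and 0.55, and of 0.21 and 0.42 with that scaling. The 4 tested markers of regenerating or denervated fibres had a median log2FC of -0.53, with 0 at such a P, and the list summed to 37.0 to 93.97 TPM with NT siRNAs and 13.35 to 71.08 TPM with *Uba1* siRNAs. All 3 fibroblast markers were tested, with a median log2FC of 0.30, and 0.19 with median-ratio scaling. Without pairing 0 of them had such a P, and with paired legs 2 were higher (against 22.4% of all genes). The part of these markers in the values of the muscle members was not tested. The difference between the lists of members was not tested either, since the lists were chosen with results known.

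*Klhl41*, whose protein stabilises nebulin and thin filaments, measured 392, 437, 480 and 443 TPM with NT siRNAs and 525, 437, 466 and 432 TPM with *Uba1* siRNAs. The groups overlapped, and replicate 1 held both the lowest and the highest of the 8 values. The log2FC was 0.09 (95% interval -0.11 to 0.28, limma adjusted p = 0.595). With median-ratio scaling it was -0.04, so its direction depended on the scale. With 1 muscle left out, the log2FC of *Klhl41* ran from 0.026 without replicate 1 with *Uba1* siRNAs to 0.13 without replicate 3 with NT siRNAs.

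*Klhl40*, whose protein protects nebulin and leiomodin 3 from degradation, measured 91.2, 112, 108 and 111 TPM with NT siRNAs and 111, 74.0, 101 and 81.3 TPM with *Uba1* siRNAs. It was lower in the leg with *Uba1* siRNAs in 3 of 4 mice and higher in replicate 1. The log2FC was -0.21 (standard error 0.132, limma adjusted p = 0.394). With median-ratio scaling it was -0.34 (unadjusted P = 0.0069, limma adjusted p = 0.248). With 1 muscle left out, the log2FC of *Klhl40* on TPM as deposited ran from -0.31 to -0.11, the latter without replicate 2 with *Uba1* siRNAs. Exons on the opposite strand of *Hhatl*, a gene at 82.5 TPM with NT siRNAs and 88.4 TPM with *Uba1* siRNAs, cover 15.7% of the exonic length of *Klhl40*, and the library kit does not record strand.

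Since *Klhl41* and *Klhl40* encode related thin filament adaptors, their ratio within a muscle was compared, which no scaling between muscles can alter. The TPM ratio of *Klhl41* to *Klhl40* was 4.30, 3.89, 4.46 and 3.99 with NT siRNAs and 4.72, 5.90, 4.61 and 5.32 with *Uba1* siRNAs. The ratio was higher in the leg with *Uba1* siRNAs in all mice, and the groups did not overlap. Replicates 2 and 4 had the widest gaps. These are also the muscles with *Uba1* siRNAs in which mitochondrial genes took the largest shares, 50.3% and 46.5%. Markers of other cells stood apart there as well. The bone marker *Ibsp* measured 19.8 and 23.0 TPM in these replicates and 1.93 and 6.71 TPM in replicates 1 and 3 with *Uba1* siRNAs, and both bone markers had an unadjusted limma P under 0.05 in the higher direction. The fat marker *Adipoq* measured 0.741 and 1.52 TPM against 6.97 and 6.65 TPM, the macrophage marker *Cd68* 4.48 and 6.49 TPM against 14.7 and 18.1 TPM, and the myosin *Myh2* of oxidative fast fibres 201.4 and 328.5 TPM against 99.7 and 135.1 TPM. The myofibre markers of the thin filament and of energy supply had the opposite order to *Myh2*, with *Acta1* at 28200 and 29550 TPM against 37330 and 42480 TPM, *Tnnt3* at 14720 and 16260 TPM against 17660 and 18270 TPM, and *Ckm* at 11580 and 13050 TPM against 13860 and 15290 TPM. The other myosins of that list had neither order. They were *Myh4* (10560 and 17830 TPM against 13420 and 16630 TPM), *Myh1* (6010 and 3535 TPM against 3613 and 3662 TPM) and *Myh7* (2.88 and 0.901 TPM against 0.991 and 0.433 TPM). The part of these differences in the ratio was not tested. This ratio was chosen after its values were seen, so it is a description with no test.

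**Figure D3:**
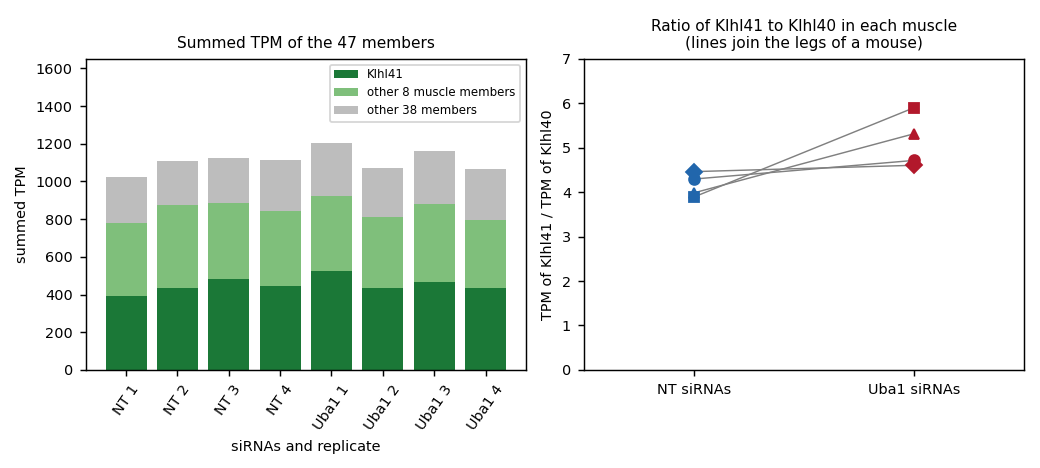
Left, stacked bars of summed TPM of the 47 members in each muscle, split into Klhl41, the other 8 muscle members and the other 38 members. Right, the TPM ratio of Klhl41 to Klhl40 in each muscle, with lines joining the legs of a mouse. The sums range from 1021 to 1202 TPM, and the ratio is 3.89 to 4.46 with NT siRNAs and 4.61 to 5.90 with Uba1 siRNAs.

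*Klhl31*, whose protein acts on filamin C and whose loss causes myopathy in mice, measured 86.5, 96.5, 83.7 and 71.2 TPM with NT siRNAs and 77.8, 66.1, 87.8 and 58.8 TPM with *Uba1* siRNAs. The groups overlapped, and the leg with *Uba1* siRNAs was lower in 3 of 4 mice. The log2FC was -0.22 (standard error 0.134, limma adjusted p = 0.377). With median-ratio scaling it was -0.35 (unadjusted P = 0.0085, limma adjusted p = 0.272). With 1 muscle left out, the log2FC of *Klhl31* on TPM as deposited ran from -0.32 to -0.13, the latter without replicate 4 with *Uba1* siRNAs.

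*Kbtbd13*, the shortest of the proteins and a thin filament regulator, measured 17.3, 15.1, 13.8 and 13.6 TPM with NT siRNAs and 16.3, 15.9, 14.5 and 14.96 TPM with *Uba1* siRNAs. These groups overlapped fully (log2FC 0.05, 95% interval -0.14 to 0.24, limma adjusted p = 0.760), and with median-ratio scaling the log2FC was -0.07. It lay between 0.0071 without replicate 4 with NT siRNAs and 0.11 without replicate 1 with NT siRNAs. *Kbtbd12* measured 6.33, 7.25, 5.69 and 6.65 TPM with NT siRNAs and 5.93, 6.04, 6.47 and 6.10 TPM with *Uba1* siRNAs, a log2FC of -0.06 (limma adjusted p = 0.651) and of -0.18 with median-ratio scaling. It lay between -0.12 without replicate 3 with NT siRNAs and -0.016 without replicate 2 with NT siRNAs.

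Among the remaining muscle members, *Klhl33* measured 54.6, 70.8, 58.2 and 91.7 TPM with NT siRNAs and 53.3, 61.3, 57.4 and 82.4 TPM with *Uba1* siRNAs. It was lower in the leg with *Uba1* siRNAs in all mice by a small step, while the mice themselves differed far more. The log2FC was -0.10 (limma adjusted p = 0.759) and -0.23 with median-ratio scaling, and with median-ratio scaling and paired legs the limma adjusted p was 0.0984.

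*Klhl30* showed the same strong mark of the mouse. It measured 93.7, 97.8, 98.5 and 60.0 TPM with NT siRNAs and 106, 96.2, 108 and 61.8 TPM with *Uba1* siRNAs. Both legs of replicate 4 were low. The log2FC was 0.08 (95% interval -0.39 to 0.55, limma adjusted p = 0.840), and -0.05 with median-ratio scaling. On the log2 scale the SD of the mouse means was 0.35, against an SD of 0.09 of the differences between legs.

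*Klhl38* measured 26.1, 32.6, 29.2 and 35.2 TPM with NT siRNAs and 21.5, 40.8, 28.9 and 41.8 TPM with *Uba1* siRNAs. The muscles with *Uba1* siRNAs lay both below and above the range with NT siRNAs (log2FC 0.07, limma adjusted p = 0.859, and log2FC -0.06 with median-ratio scaling). Replicates 2 and 4 were the highest muscles of that group, and they are also those with the largest mitochondrial shares and the bone and fat marker levels given above, whose part in this was not tested. The legs with NT siRNAs of the same mice were also the highest of their group.

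*Klhl34* measured 10.1, 7.81, 7.01 and 8.69 TPM with NT siRNAs and 7.81, 12.7, 9.998 and 14.4 TPM with *Uba1* siRNAs. Replicate 1 was lower and the other 3 replicates higher in the leg with *Uba1* siRNAs. The log2FC was 0.36 (standard error 0.173, limma adjusted p = 0.308), and 0.24 with median-ratio scaling. With 1 muscle left out, the log2FC of *Klhl34* on TPM as deposited ran from 0.24 to 0.50, the latter without replicate 1 with *Uba1* siRNAs. Replicates 2 and 4, with the same mitochondrial and marker levels, were again the highest, and this too was not tested. The whole exonic length of *Klhl34* (100%) lies within exons of *Cnksr2* on the opposite strand, and *Cnksr2* itself measured 0.0469 and 0.0325 TPM.

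**Figure D4:**
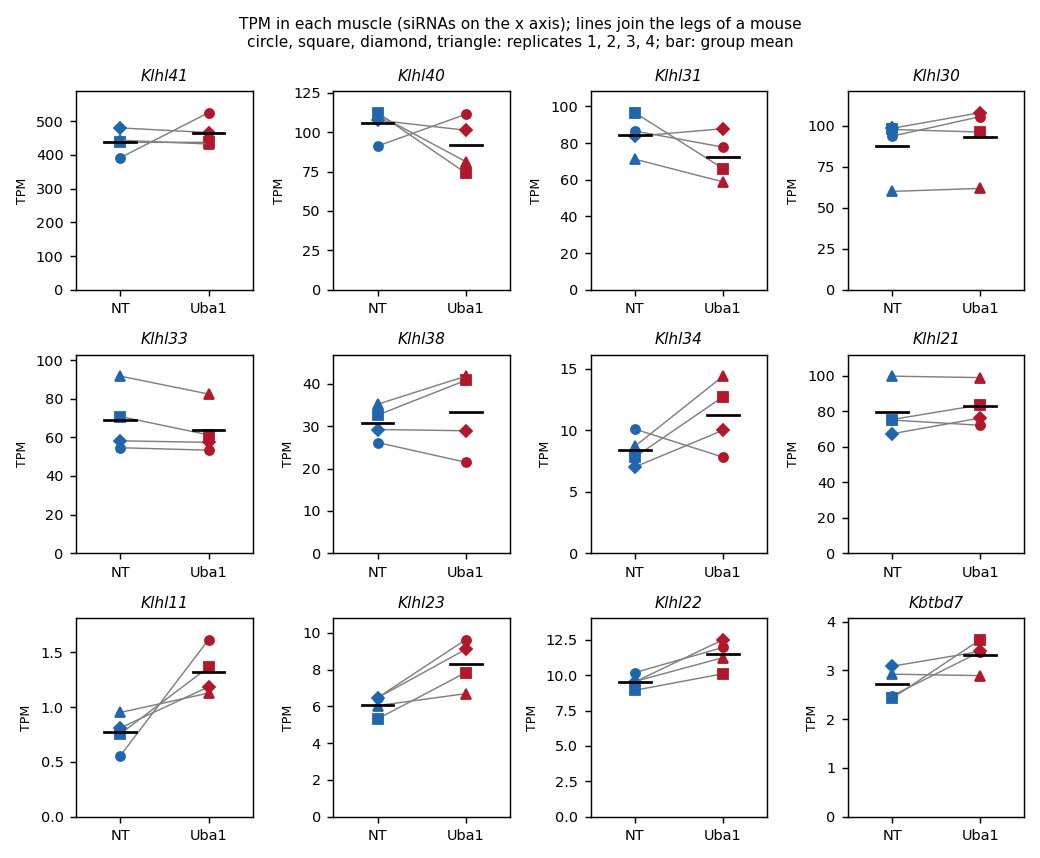
TPM of 12 members in each muscle, with NT siRNAs at the left and Uba1 siRNAs at the right of each panel, lines joining the legs of a mouse and black bars for group means. Lines for Klhl30, Klhl33 and Klhl21 run nearly level while the mice stand apart, lines for Klhl11, Klhl23 and Klhl22 all slope upward, and those for Klhl41 and Klhl40 cross.

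The legs of a mouse were alike for some adaptors and not for others. Deviations from the group means had a positive correlation between the legs, over 4 mice, in 23 of 35 tested members. *Klhl13*, *Klhl30*, *Klhl38* and *Klhl33* had the largest SD of mouse means, between 0.30 and 0.38 on the log2 scale. By contrast, *Klhl40*, *Klhl41*, *Klhl34* and *Klhl11* had SD of mouse means of 0.09, 0.05, 0.17 and 0.02, and SD of the differences between legs of 0.39, 0.22, 0.47 and 0.27. For legs that vary independently the differences already have a larger SD than the mouse means, so these SD are not on a like scale. Pairing the legs lowered the standard error in 27 of 35 members, with a median ratio of 0.836, and in 78.9% of all genes.

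Outside the muscle list, *Klhl21*, an adaptor that directs Aurora B during cell division, was the most abundant member. It measured 75.1, 75.4, 67.4 and 99.8 TPM with NT siRNAs and 72.1, 83.6, 76.2 and 99.0 TPM with *Uba1* siRNAs, a log2FC of 0.06 (limma adjusted p = 0.800). Both legs of replicate 4 were high, which is the mouse in which *Klhl30* was low. With median-ratio scaling the log2FC was -0.06. *Klhl9* and *Klhl13*, adaptors for the same kinase, measured 18.6 and 2.71 TPM with NT siRNAs and 20.5 and 2.83 TPM with *Uba1* siRNAs. These near copies are identical at 90.1% of aligned residues but shared 0 coding stretches of 50 bases.

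*Klhl22*, which acts in mitosis and on the nutrient sensor component DEPDC5, measured 10.2, 8.93, 9.52 and 9.56 TPM with NT siRNAs and 11.96, 10.1, 12.5 and 11.2 TPM with *Uba1* siRNAs. All mice had more in the leg with *Uba1* siRNAs, while the groups overlapped by 1 muscle on each side. The log2FC was 0.24 (standard error 0.0778, unadjusted P = 0.0134, limma adjusted p = 0.187) and 0.12 with median-ratio scaling (unadjusted P = 0.0759). *Klhl18*, an adaptor for Aurora A, measured 4.51 and 4.92 TPM (log2FC 0.10, and -0.01 with median-ratio scaling), and *Klhl42*, an adaptor for the microtubule-severing enzyme katanin, was below the limit for testing.

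*Klhl23* measured 6.48, 5.32, 6.47 and 6.04 TPM with NT siRNAs and 9.63, 7.84, 9.11 and 6.69 TPM with *Uba1* siRNAs. The groups did not overlap, and every mouse had more in the leg with *Uba1* siRNAs. The log2FC was 0.39 (standard error 0.111, unadjusted P = 0.0063, limma adjusted p = 0.168). With median-ratio scaling it was 0.27 (unadjusted P = 0.0073, limma adjusted p = 0.257).

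*Klhl11*, known as the target of autoantibodies in a form of encephalitis, measured 0.556, 0.756, 0.810 and 0.950 TPM with NT siRNAs and 1.61, 1.36, 1.18 and 1.13 TPM with *Uba1* siRNAs. *Klhl11* reached 1 TPM in the 4 muscles with *Uba1* siRNAs and in none of the others, so it was tested only because of the group in which it was high, and its P is not read as a test. It was the sole member admitted in this way, as were 13 of all genes tested. The groups did not overlap, and replicate 1 had the widest gap between legs. The log2FC was 0.39 (standard error 0.103) with a pseudocount of 1, 0.72 with a pseudocount of 0.1 and 0.33 with median-ratio scaling. *Kbtbd7*, which with KBTBD6 targets the guanine exchange factor TIAM1, measured 2.48, 2.43, 3.09 and 2.92 TPM with NT siRNAs and 3.38, 3.63, 3.39 and 2.89 TPM with *Uba1* siRNAs. The groups overlapped, and 3 of 4 mice had more in the leg with *Uba1* siRNAs (log2FC 0.22, unadjusted P = 0.0395, limma adjusted p = 0.256). With median-ratio scaling the log2FC was 0.12, and the unadjusted P was no longer under 0.05. *Kbtbd6* was at 0 to 0.0441 TPM. Since *Kbtbd6* and *Kbtbd7* are identical at 92.3% of aligned coding bases and share 676 stretches of 50 bases, the division of reads between them is uncertain.

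*Klhl6*, an adaptor of B lymphocytes also found in endothelium, measured 1.58, 1.39, 1.54 and 0.951 TPM with NT siRNAs and 2.10, 1.62, 1.62 and 1.61 TPM with *Uba1* siRNAs. The groups did not overlap, though the highest muscle with NT siRNAs lay close to the lowest with *Uba1* siRNAs (log2FC 0.22, limma adjusted p = 0.326, and 0.191 with paired legs). With median-ratio scaling the log2FC was 0.14. Of 9 leukocyte markers 4 were tested and 0 had a P under 0.05, and their summed level ran from 99.2 to 318 TPM with NT siRNAs and from 95.8 to 338 TPM with *Uba1* siRNAs. No marker was at 0 in every muscle. All 4 endothelial markers were tested, 0 had a P under 0.05, and they summed to between 89.7 and 125 TPM and between 101.5 and 123.5 TPM.

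Adaptors tied to growth signalling, trafficking and filaments were at moderate levels and none passed the test. *Klhl24*, which controls keratin turnover, measured 30.0 ± 2.10 TPM with NT siRNAs and 34.0 ± 3.74 TPM with *Uba1* siRNAs (log2FC 0.17, limma adjusted p = 0.320, and log2FC 0.05 with median-ratio scaling). *Kbtbd2*, an adaptor for a regulatory subunit of phosphoinositide kinase, was the steadiest, at 10.5 ± 0.460 and 10.9 ± 0.350 TPM (log2FC 0.05, 95% interval -0.09 to 0.19, and log2FC -0.07 with median-ratio scaling). *Klhl25*, an adaptor for ATP-citrate lyase, measured 2.16 and 2.35 TPM.

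*Klhl12*, which ubiquitinates the coat protein SEC31, measured 4.59 and 5.10 TPM, and *Klhl20*, which acts on a death-associated kinase, measured 2.31 and 2.56 TPM. *Klhl8*, whose worm counterpart acts on the receptor clustering protein rapsyn, measured 17.5 ± 2.08 TPM with NT siRNAs and 20.5 ± 3.16 TPM with *Uba1* siRNAs and was higher in that leg in all mice (log2FC 0.21, limma adjusted p = 0.374, and 0.135 with paired legs), with a log2FC of 0.08 after median-ratio scaling. *Klhl26* showed the same order in all mice, with 6.33 ± 1.34 and 7.54 ± 0.930 TPM (log2FC 0.23, limma adjusted p = 0.359, and 0.146 with paired legs), with a log2FC of 0.12 after median-ratio scaling. *Klhl17*, the actin-binding adaptor of neurons, measured 5.79 ± 0.871 and 5.87 ± 1.80 TPM, with muscles on both sides of the range. Exons of *Perm1*, on the opposite strand at 133.0 and 138.2 TPM, cover 3.27% of the exonic length of *Klhl17*. Those of *Plekhn1*, on the same strand at 0.652 and 0.867 TPM, cover 26.3%. The part of such reads in the values of *Klhl17* was not tested.

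Of the 12 members below the limit for testing, the nearest to it were *Klhl3*, *Klhl42* and *Kbtbd8*. *Klhl3*, which with KLHL2 targets the WNK kinases of salt transport, measured 0.882 and 0.994 TPM on average, and *Klhl2*, which just passed the limit, 1.30 and 1.397 TPM. *Klhl42* measured 0.767, 0.320, 0.653 and 0.310 TPM with NT siRNAs and 1.22, 1.00, 1.17 and 0.684 TPM with *Uba1* siRNAs. It was higher in that leg in all mice but the groups overlapped by 1 muscle on each side (exact permutation test, two-sided, p = 0.0571). *Kbtbd8*, *Klhl15* and *Kbtbd11* averaged between 0.504 and 0.648 TPM over the 8 muscles. The testis adaptor *Klhl10* averaged 0.157 TPM, and *Kbtbd8os*, *Klhl35*, *Klhl32*, *Kbtbd6* and *Klhl14* averaged below 0.1 TPM. *Kbtbd8os* reached 0.317 and 0.162 TPM in replicates 1 and 3 with *Uba1* siRNAs and was at 0 in the other muscles.

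The ligase core that all of these adaptors share was expressed well above most of them. *Cul3* measured 91.8, 90.1, 92.8 and 112 TPM with NT siRNAs and 103, 105, 101 and 108 TPM with *Uba1* siRNAs, a log2FC of 0.11 (limma adjusted p = 0.444) and of -0.02 with median-ratio scaling. *Rbx1*, the RING subunit, measured 25.7 ± 0.513 and 27.5 ± 2.48 TPM (limma adjusted p = 0.500), and it too changed sign with that scaling. Of 15 genes of the core and of neddylation, all tested, 0 passed the adjusted p without pairing, 4 had an unadjusted limma P under 0.05 in the higher direction (*Nae1*, *Dcun1d4*, *Dcun1d5* and *Cand2*, 26.7% against 16.0% of all genes) and 1 in the lower direction (*Dcun1d3*, 6.67% against 1.98%). With median-ratio scaling, *Cand2* and *Dcun1d3* kept such a P, and the log2FC of *Nae1*, *Dcun1d4* and *Dcun1d5* were 0.06, 0.08 and 0.02. All 10 subunits of the COP9 signalosome, which removes NEDD8 from cullins, were tested, and 0 had such a P.

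*Cand2*, a muscle-enriched relative of the factor that exchanges cullin adaptors, measured 50.3, 49.1, 51.4 and 47.9 TPM with NT siRNAs and 62.3, 59.1, 68.2 and 57.4 TPM with *Uba1* siRNAs. The groups did not overlap (log2FC 0.31, standard error 0.0677, limma adjusted p = 0.137, and 0.0794 with paired legs). With median-ratio scaling the log2FC was 0.18 (limma adjusted p = 0.272). *Dcun1d3*, a membrane-bound regulator of cullin neddylation, measured 3.95, 3.81, 3.76 and 3.56 TPM with NT siRNAs and 3.38, 2.58, 2.97 and 2.67 TPM with *Uba1* siRNAs. These groups did not overlap either (log2FC -0.29, limma adjusted p = 0.166), and with median-ratio scaling *Dcun1d3* passed the test (log2FC -0.39, limma adjusted p = 0.0463). With paired legs the adjusted p was 0.0983, and 0.0533 with paired legs and median-ratio scaling, so that call was lost. With quantile normalization it was held with and without pairing (limma adjusted p = 0.0488 and 0.0467).

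A list of kelch-BTB adaptors with other symbols held 5 genes. All 5 were tested, and 1, *Ivns1abp*, had an unadjusted P under 0.05, with 45.8 ± 4.20 TPM with NT siRNAs and 53.6 ± 1.09 TPM with *Uba1* siRNAs (log2FC 0.22, limma adjusted p = 0.182). The share among all genes was 16.0%. With median-ratio scaling the log2FC of *Ivns1abp* was 0.10, and its unadjusted P was no longer under 0.05. *Keap1*, the adaptor for the oxidative stress factor NRF2, measured 28.4 ± 2.10 and 31.4 ± 1.66 TPM (limma adjusted p = 0.327). Among 23 other BTB adaptors of CUL3, all tested and among them *Lztr1*, which carries kelch repeats too, 8 had such a P in the higher direction (34.8%, against 16.0% of all genes) and 0 in the lower (against 1.98%). With median-ratio scaling 2 were higher, *Btbd3* and *Btbd9* (against 3.90% of all genes), and 1 was lower, *Kctd10* (against 6.70%). With paired legs 1 of the 23 passed the adjusted p (against 0.494% of all genes), *Btbd3*, known for its part in the shape of neurons. It measured 4.64, 4.52, 5.20 and 4.19 TPM with NT siRNAs and 7.16, 6.34, 7.76 and 5.78 TPM with *Uba1* siRNAs (log2FC 0.46, limma adjusted p = 0.129, and 0.0472 with paired legs). The call was lost with paired legs and median-ratio scaling (limma adjusted p = 0.0553) and with paired legs and quantile normalization (0.0645), and the log2FC with median-ratio scaling was 0.35.

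Of 21 mRNAs for known substrates and partners of the adaptors, 19 were tested, 0 passed the adjusted p without pairing, and 2 had an unadjusted limma P under 0.05, both higher (10.5%, against 16.0% of all genes). Those were *Rapsn* (23.5 ± 1.30 and 27.9 ± 1.94 TPM), the mRNA for rapsyn, and *Ppp2r5b* (21.8 ± 1.14 and 24.3 ± 0.970 TPM), a phosphatase subunit targeted by KLHL15. With median-ratio scaling their P were 0.160 and 0.695 by limma, and 3 other genes of the list were lower at such a P (*Dvl1*, *Nfe2l2* and *Tiam1*, 15.8% against 6.70% of all genes). The sarcomeric clients gave *Neb* 397.9 ± 84.8 and 431.2 ± 27.3 TPM, *Lmod3* 136.8 ± 11.6 and 142.4 ± 17.5 TPM, and *Flnc* 188.7 ± 24.4 and 187.6 ± 45.2 TPM. Their limma adjusted p-values were 0.582, 0.772 and 0.933. Protein levels were not analysed here.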

How the data were processed

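The TPM of 8 TA muscles were used as deposited by the authors, who trimmed paired 100-base reads, used CLC Genomics Workbench for alignment to GRCm39, and expressed each gene in TPM. The annotation and the treatment of reads that match several genes are not given in the sources used here.

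Genes that reached 1 TPM in 4 or more muscles were tested on log2(TPM + 1) with limma (version 3.58.1 in R 4.3.3, eBayes with trend) without pairing, and P-values were adjusted by Benjamini-Hochberg over 11530 genes. The study's methods name a Kruskal-Wallis test, which was run as an alternative. Equal replicate numbers mark the legs of 1 mouse, which pairs the samples. Deviations from group means correlated within pairs at -0.000368, 0.201, 0.584 and 0.537. The alternatives were other scalings, filters and pseudocounts, the block and leaving out each muscle.

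Full values were given for the muscle list, members with an unadjusted P under 0.05 and the 6 highest members. Members, lists and this rule were chosen with earlier results of these data known. Gene positions and sequences come from GENCODE M39 and GRCm39.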

Additional observations from a re-analysis of the deposited data

Results flagged for a closer look

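Of 60 groups of 4 muscles examined, 4 held a muscle that stood apart from the rest by Dixon's test, and about 3 would by chance. *Klhl30* was 60.0 TPM in replicate 4 with NT siRNAs, against 93.7 to 98.5 TPM in the other 3 muscles, and the other leg of that mouse was also low. *Cul3* was 112.1 TPM in replicate 4 with NT siRNAs, above the other 3 muscles of the group. Without that muscle the log2FC of *Cul3* was 0.18 (limma adjusted p = 0.180), against 0.11 with all muscles. *Dcun1d4* was 3.556 TPM in replicate 3 with NT siRNAs, below its group, and 4.989 TPM in replicate 2 with *Uba1* siRNAs, above its group.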

How the results depend on the processing

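No kelch-BTB adaptor passed an adjusted p of 0.05 under any of the 10 alternatives, of which the replicate block with quantile normalization was added after seeing the data, or when any muscle was left out. The Kruskal-Wallis test called 0 of 11530 genes, and the fits without 1 muscle called 2 to 39 genes and missed *Uba1* in 6 of 8, so the 0 among the adaptors in those fits says nothing about stability. The number of adaptors at an unadjusted P under 0.05 was 4 higher (against 16.0% of all genes) and 0 lower (1.98%). It became 2 higher with a limit of 5 TPM on average (15.8%), 2 higher (3.90%) and 2 lower (6.70%) with median-ratio scaling, 2 higher (6.19%) and 4 lower (9.50%) with the replicate block and that scaling, 3 higher (4.45%) and 2 lower (5.16%) with quantile normalization, and 3 higher (7.15%) and 3 lower (7.13%) with the block and quantile normalization. It was 6 higher (22.4%) and 0 lower with the block alone and 5 higher (22.0%) and 0 lower without mitochondrial genes. With 1 muscle left out, 3 to 6 were higher (at most 17.7%) and 0 to 1 lower (1.52% to 2.45%). *Klhl11* is 1 of the higher adaptors in each of these counts except that with the limit of 5 TPM, where it was not tested. The replicate block changed no call of an adaptor at the adjusted p.

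The summed TPM of the family with *Uba1* siRNAs over NT siRNAs was 1.03, and it was 0.94 with median-ratio scaling. The log2FC of *Uba1* was -1.98 and passed the adjusted p at that value with the replicate block and with the limit of 5 TPM, at -1.996 without mitochondrial genes, at -2.10 with median-ratio scaling with or without the block, and at -2.06 with quantile normalization with or without the block. It missed the threshold without a filter (limma adjusted p = 0.131) and with a pseudocount of 0.1 (0.0666). Leaving out 1 muscle gave a log2FC from -2.18 to -1.64, which passed in 2 of 8 fits, without replicate 2 or 4 with *Uba1* siRNAs (limma adjusted p = 0.00257 and 0.0206), while the other 6 gave 0.0838 to 0.230.

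Values near 0 changed sign with the scale. With median-ratio scaling, with or without the block, the log2FC was -0.048 for *Klhl30*, -0.057 for *Klhl38*, -0.044 for *Klhl41*, -0.074 for *Kbtbd13*, -0.065 for *Klhl21*, -0.018 for *Cul3*, -0.036 for *Rbx1* and -0.075 for *Lmod3*. With quantile normalization, with or without the block, it was -0.043 for *Kbtbd13* and -0.00046 for *Klhl21*. With 1 muscle left out it ran from -0.089 to 0.26 for *Klhl30* (lowest without replicate 4 with NT siRNAs), from -0.23 to 0.044 for *Klhl33* (highest without the same muscle), from -0.055 to 0.25 for *Klhl38*, from -0.025 to 0.18 for *Klhl21*, from -0.00093 to 0.125 for *Lmod3* and from -0.18 to 0.059 for *Flnc*. The cause of these shifts was not tested. Precision was limited by 4 muscles a group and by TPM, which keep no depth.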
